A study of Saccharomyces cerevisiae with 6 samples.

Results

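The genes described here are 53 assembly factors of the large ribosomal subunit of budding yeast (Saccharomyces cerevisiae), taken as every array feature whose annotated gene symbol is on a fixed list of names. All 53 genes were found, on 66 of the 7680 features that were analysed and among 5583 named genes. Of these genes, 13 were spotted in 2 places and 40 in 1. Each of the 6 two-colour arrays set total RNA of yra1-1 cells against total RNA of Yra1 wild-type cells, both held at 37 °C. The yra1-1 allele is temperature-sensitive, and the labels call this temperature non-permissive. The wild-type cells went through the same temperature, so the heat itself is common to both RNAs. The labels put the mutant RNA in channel 1 of arrays 1, 4 and 6, and in channel 2 of the other arrays.

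Large subunits are built in the nucleolus on a precursor RNA that is folded, modified and cut while ribosomal proteins join it. Assembly factors bind the particle for a time and leave again: RNA helicases and GTPases drive single steps, methyltransferases modify the RNA, placeholder proteins hold positions that ribosomal proteins take later, and export factors carry the particle through the nuclear pore. In budding yeast the genes of these factors are known to be expressed together with growth rate and to be repressed together under stress, heat included. Yra1 itself is an mRNA export factor.

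The values are log2 ratios of the channels of an array, relative to the median of all features on that array. They are given in 2 readings, since the sources used here do not name the numerator channel. In the first, called turned, the sign of arrays 2, 3 and 5 was reversed so that the labelled mutant channel was the same on all arrays. In the second, the columns were kept as deposited. A turned value is mutant over wild type only if channel 1 is the numerator, the inverse if channel 2 is, and a dye difference if the columns had already been turned. A value as deposited is likely mutant over wild type at most, on the ground that the titles name the mutant first. The direction is settled in neither, so values are described as positive or negative. In RNA of whole cultures, a change in the share of cells and a change in RNA per cell cannot be told apart.

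Arrays with the mutant in the same channel correlated at 0.042 to 0.386 across all features, and arrays with it in opposite channels at −0.135 to 0.326. As deposited, TRP1, a gene often used as a strain marker, had −3.48 on array 1, against values from 2.76 to 4.16 elsewhere, and URA3, another such gene, had 3.19, against −5.92 to −2.21. YRA1, which carries the allele, was at −1.39 on array 1, against 1.00 to 3.49 elsewhere. Array 1, whose title has the prefix "mex" that no other title has, thus stood apart as deposited. When turned, these genes had 1 sign on arrays 1, 2, 3 and 5 and the other on arrays 4 and 6, so in neither reading did all 6 arrays run one way. As deposited but with array 1 turned over, each of these genes had 1 sign on all 6 arrays. Member means are given with and without array 1. All 66 member features had a value on all 6 arrays and passed the filter on missing values.

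The assembly factors lay on the negative side on array 4 and were mixed on the others. On array 4 their mean was −1.0 and their median −1.30, with 57 of 66 features negative (86.4%, against 50.0% of all features) and 37 below −1 (56.1%, against 15.8% of all features). On array 5 the mean was −0.46 and 46 features were negative (69.7%, against 50.0%), with 28 below −1 (42.4%, against 20.9% of all features) and 11 above 1 (16.7%, against 22.7%). Array 2 ran the other way, with a mean of 0.40 and 48 features positive (72.7%, against 50.0%). Arrays 1, 3 and 6 had means of 0.15, −0.08 and 0.07, within the spread of single members around the array median. These values are as deposited, and the SD over member features was 0.81 to 1.57 on each array, so single members often lay on the other side from the mean.

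**Figure D1:**
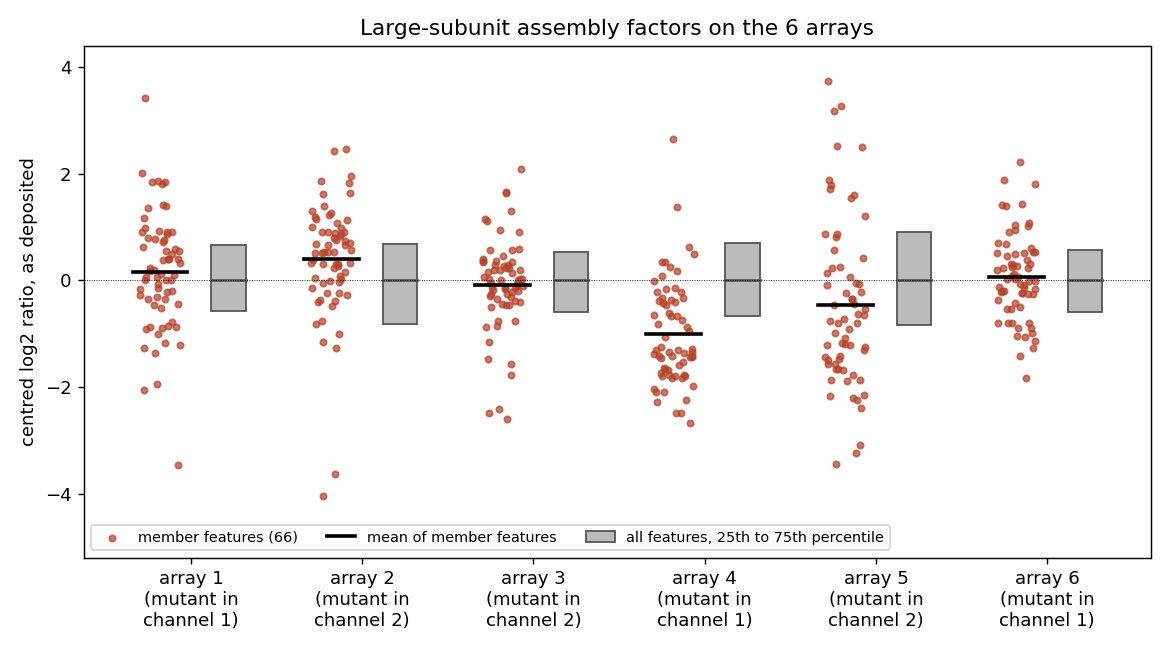
Centred log2 ratio, as deposited, of each of the 66 member features (points, left) on each array, with their mean (black line), beside the 25th to 75th percentile of all features (grey box, right; line at the median). On array 4 the member mean is −1.0, and on array 5 the points spread from −3.45 to 3.74.

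The member mean did not have 1 sign over the 6 arrays in either reading. Turned by the labelled channel, the means were 0.15, −0.40, 0.08, −1.0, 0.46 and 0.07 on arrays 1 to 6, which is −0.11 ± 0.52 (SD, n = 6 arrays), against 0.06 ± 0.08 for all features. As deposited, the mean was −0.15 ± 0.50 (SD, n = 6), against −0.01 ± 0.10. Both means are smaller than the spread between arrays. The sign of both rested on array 4: without it the means were 0.08 turned and 0.03 as deposited. Without array 1 they were −0.21 and −0.26, and with array 1 turned over −0.16 and −0.20. The turned mean was 0.01 without array 2. Within the labelled day of arrays 5 and 6 it was 0.27, and within that of arrays 1 and 3 it was 0.12, both on the positive side. The days were taken from the 6-digit code in each title, read as a date. The titles of arrays 1 and 3 also share a slide number, with the letters a and b, so these arrays may not be separate.

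On array 4 the features with nearby identifiers did not share the low values of the members. Nearness on the slide was taken from the identifiers alone. With the median of the neighbouring features subtracted, the member mean was −1.04 on array 4, with 60 of 66 features negative, while the neighbourhood itself averaged 0.04. On array 5 the same correction took the mean to −0.16 with 40 features negative, and on array 2 to 0.51 with 46 positive. The shares of all features on these sides after the correction were not worked out, so these counts stand without a background.

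No member feature passed the test in either reading. By limma with Benjamini-Hochberg adjustment over all features, 0 of 66 passed in the turned contrast, where 1 of 7680 features did (0.0130%), and 0 of 66 passed as deposited, where 127 did (1.65%). At an unadjusted p under 0.05 there were 8 member features in the turned contrast (12.1%, against 13.0% of all features). Of these, 3 were positive (7.51% of all features were) and 5 negative (5.48%). As deposited there were 3 (4.55%, against 13.5%), all negative (7.33% of all features were). The total shares are near or below the background. The median of the member estimates was −0.14 turned, against 0.04 for all features, and −0.16 as deposited, against 0.02. Negative estimates made up 39 of 66 turned (59.1%, against 46.5%) and 44 of 66 as deposited (66.7%, against 48.5%).

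The members with the smallest p in the turned contrast lay on both sides. DBP6, a DEAD-box helicase of early large-subunit particles, had turned values of 1.86, 3.64, 0.13, 2.66, 0.99 and 0.50 on arrays 1 to 6. It was positive on every array and ran from near 0 to well above it, at 1.63 ± 0.47 (SE, limma adjusted p = 0.251). NOP15, an RNA-binding nucleolar protein, had turned values of 0.98, 4.05, 0.45, −0.21, 2.21 and 0.61, positive on all but array 4, at 1.35 ± 0.44 (limma adjusted p = 0.266). DBP2, a DEAD-box helicase that also takes part in mRNA metabolism, had turned values of 1.84, −0.90, 1.16, 1.38, 1.57 and 0.95, with array 2 alone on the negative side, at 1.00 ± 0.38 (limma adjusted p = 0.306). With the neighbouring features subtracted, the estimates of NOP15 and DBP2 changed side, to −0.19 and −0.29, and that of DBP6 was 0.50 ± 0.38 (SE). With array 1 turned over, DBP6 stood at 1.01 and DBP2 at 0.39 (limma adjusted p = 0.964 and 0.984).

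On the negative side NOP16, a constituent of nucleolar pre-ribosomes, had turned values of −0.35, −0.03, −0.35, −1.80, −2.51 and −1.83. It was negative on every array and clearly so on arrays 4 to 6, at −1.15 ± 0.40 (SE, limma adjusted p = 0.286). The DEAD-box helicase gene DBP3 (feature 2903) stood at −1.24 ± 0.48 (limma adjusted p = 0.321), with turned values of −0.47, 0.24, −0.28, −1.74, −3.74 and −1.42. SSF2, a Brix-domain protein gene, followed at −0.83 ± 0.34 (limma adjusted p = 0.345), the GTPase gene NUG1 at −0.97 ± 0.42 (limma adjusted p = 0.358) and the helicase gene DRS1 (feature 3322) at −0.77 ± 0.34 (limma adjusted p = 0.370). EBP2 (feature 3289), whose product is needed for maturation of the large-subunit RNA, and MAK16 completed the 10 smallest p, at −0.97 ± 0.46 and −0.73 ± 0.34 (limma adjusted p = 0.395 and 0.396). These estimates were uneven over the labelled days and arrays. Within the day of arrays 5 and 6, NOP16 stood at −2.17, DBP3 at −2.58, NUG1 at −1.79 and EBP2 at −2.22, while within the day of arrays 1 and 3 NOP16 stood at −0.35, DBP3 at −0.38, NUG1 at 0.07 and EBP2 at −0.00. DRS1 stood at −0.93 and MAK16 at −1.10 on the first of these days, and at −0.08 and −0.31 on the second. SSF2 was smaller on the first, at −0.16, than on the second, at −0.90. Without array 5 the estimates were −0.76 for NOP16, −0.62 for DBP3, −0.56 for NUG1 and −0.43 for EBP2. With both features of DBP3 averaged, its estimate was −0.66. With the neighbouring features subtracted, NOP16 stood at −0.69, SSF2 at −0.39 and NUG1 at −0.56, and with array 1 turned over SSF2 stood at −0.54.

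As deposited, the smallest p belonged to 1 of 2 features of DBP7, a helicase gene of early particles. Feature 5344 lay at −1.27, −1.0, −2.60, −1.42, −1.88 and −0.07, negative on all arrays, at −1.37 ± 0.35 (SE, limma adjusted p = 0.0797). Its other feature, 3830, lay at 0.32, 1.13, 0.20, −1.69, −1.18 and 0.53, which is negative on arrays 4 and 5 only, at −0.12 ± 0.41 (limma adjusted p = 0.957). NIP7, a factor for nucleolar maturation, lay at −1.17, −0.76, −0.86, −0.65, −2.15 and −0.42, on 1 side throughout, at −1.0 ± 0.33 (limma adjusted p = 0.171). Its estimate was −0.30 with the neighbouring features subtracted, where that of DBP7 feature 5344 was −0.90, and −0.61 with array 1 turned over. LSG1 feature 4346 lay at −0.45, −0.81, −1.77, −0.33, −0.79 and −0.79, also negative on every array, at −0.82 ± 0.31 (limma adjusted p = 0.242). LSG1 is the cytoplasmic GTPase that releases the export adaptor Nmd3. Its values on arrays 1 and 3 were identical to those of the SAE2 feature, so they need not be its own. The other LSG1 feature had an estimate of 0.14, with array values from −1.16 to 1.04. The remaining 7 of the 10 smallest p had an adjusted p of 0.427 to 0.655. They were NOP15 (−0.89), SSF1 (−0.56), RPF2 feature 4038 (0.64), YTM1 (−0.85), MRT4 (0.62), RLP7 feature 3582 (0.50) and RRP14 feature 4429 (−0.51). Single arrays moved all of these but SSF1 by over 1.5 times. Without array 2, NOP15 stood at −0.44, MRT4 at 0.29 and RLP7 at 0.29. Without array 5, YTM1 stood at −0.33 and RRP14 at −0.19, and without array 1 YTM1 stood at −0.40. Without array 6, RPF2 stood at 0.39, MRT4 at 0.41 and RLP7 at 0.31. NOP15 was larger without array 3, at −1.34, and RLP7 without array 4, at 0.76. SSF1 stood at −0.22 with array 1 turned over.

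Few assembly factors had the same sign on every array, and counts this small are not read as a difference from all features. Turned, it held for DBP6, NOP16 and EBP2 feature 4441, which is 3 of 66 features (4.55%, against 7.28% of all features), 1 positive (2.98% of all features were) and 2 negative (4.31%). As deposited it held for DBP7 feature 5344, NIP7 and LSG1 feature 4346, again 3 of 66 (4.55%, against 8.09%), all negative (4.03% of all features were).

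On array 5 the 37 features that were below −1 on array 4 spread over both sides. Described here are the ends of that spread, cut at 1 and −1. The features between them ran from −0.91 to 0.87 on array 5. This split was noticed in the data and is given as a description. The first set held 8 features of 7 genes: DBP3 (feature 2903), DRS1 (feature 3322), both features of EBP2, MAK16, NOP16, NOP7 (feature 1775) and NUG1 lay below −1 on array 4 and above 1 on array 5 (12.1% of the members, against 3.52% of all features). Members below −1 on array 4 were frequent by themselves (56.1%, against 15.8% of all features). Members above 1 on array 5 were not (16.7%, against 22.7%). Of the features below −1 on array 4, 8 of 37 members lay above 1 on array 5, and 267 of 1216 in all (267 counted on features with all 6 values). The higher share of the first set thus came from array 4. On array 5 the features of the first set ran from 1.21 to 3.74 with a median of 2.20, and on array 6 they were all negative, from −1.83 to −0.08. On arrays 1 to 3 their medians were −0.12, 0.09 and 0.13. The second set was 16 features of 15 genes below −1 on both arrays (24.2%, against 3.52%): ARX1, DBP7 (both features), DBP9, ERB1 (feature 5984), HAS1 (feature 4728), LOC1, MAK21, NOC3, NOG2, PUF6, RPF2 (feature 5793), RRP14 (feature 4429), SDA1, SPB4 and YTM1. Of the features below −1 on array 4 it held 16 of 37 members, and again 267 of 1216 in all. The other features of DBP3, DRS1, NOP7, ERB1, HAS1, RPF2 and RRP14 were in neither set. The sets are thus of features, and only EBP2 and DBP7 had both of theirs in one. On array 5 the features of the second set ran from −2.40 to −1.08, and on array 2 they had a median of 0.82. In the first set the neighbour-corrected values on array 5 stayed between 1.03 and 3.38, and on array 4 between −1.68 and −0.93. In the second the corrected values ran from −2.44 to 0.60 on array 5 and from −2.54 to −0.88 on array 4.

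**Figure D2:**
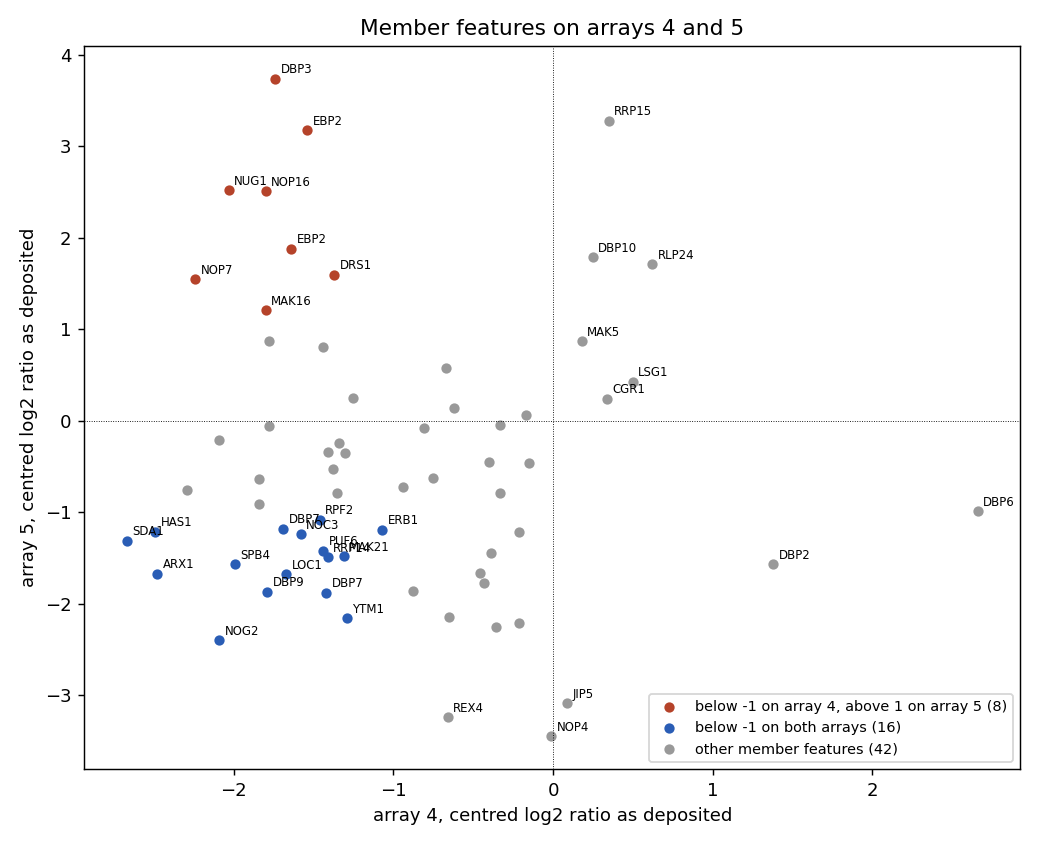
Each point is 1 member feature, with its centred log2 ratio as deposited on array 4 (horizontal) and array 5 (vertical). The 8 features of the first set (red) sit at the upper left, the 16 of the second (blue) at the lower left, and DBP6 stands alone at 2.66 on array 4.

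**Figure D3:**
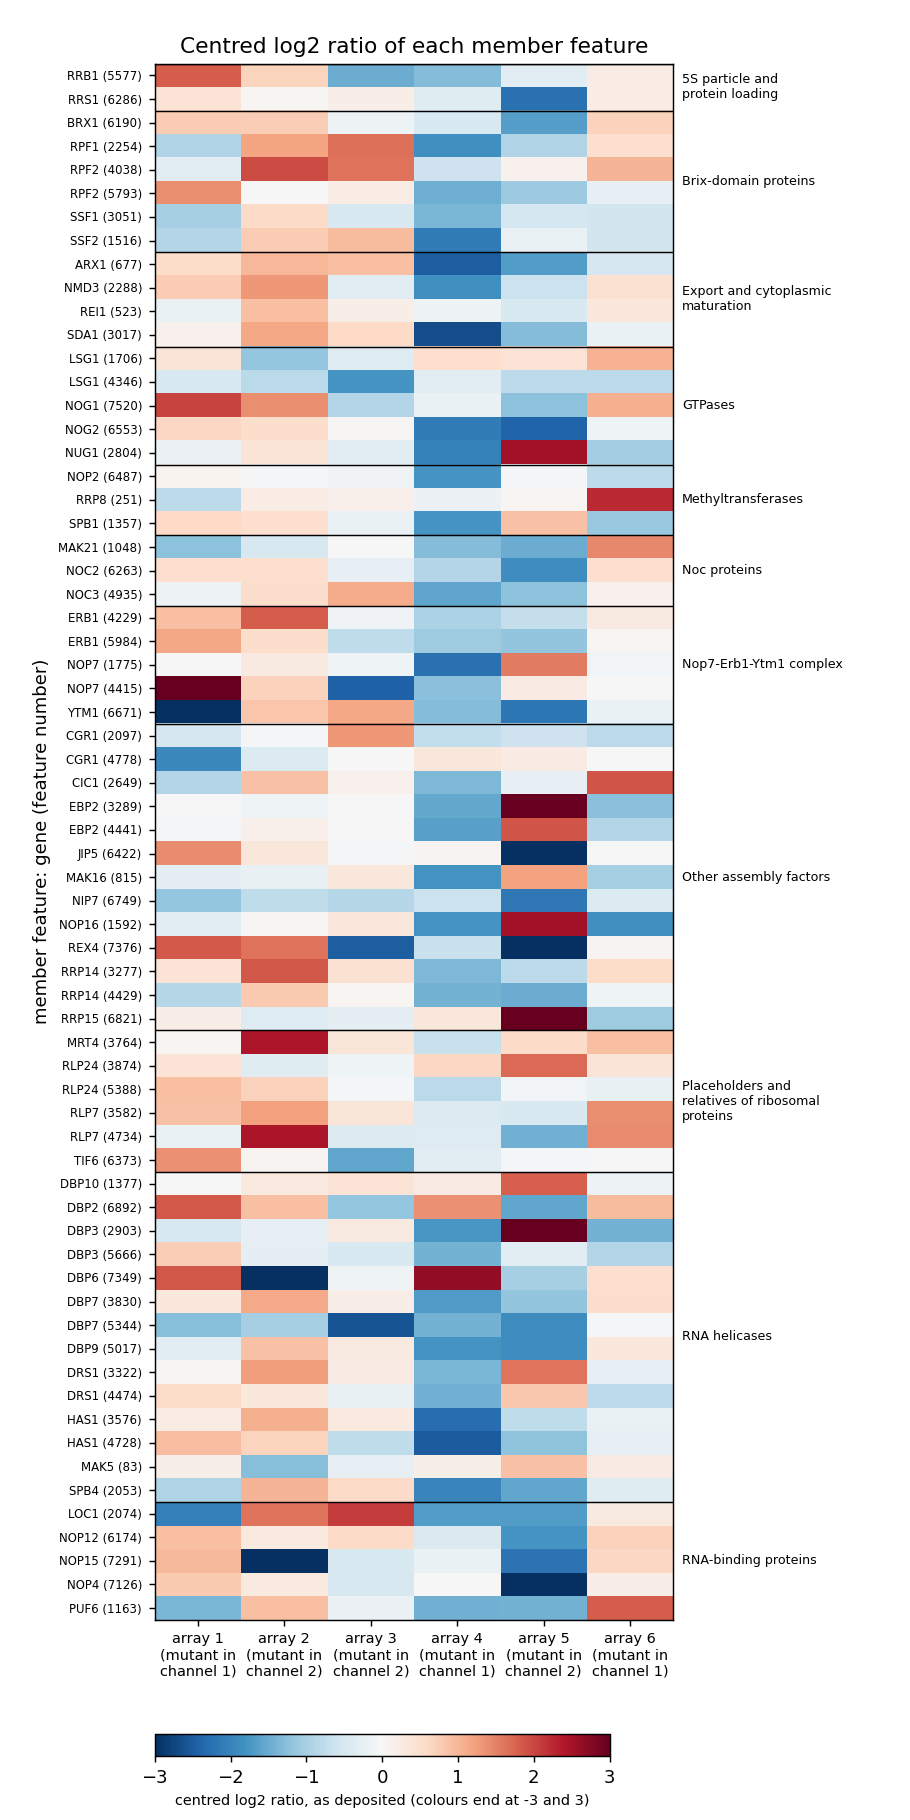
Centred log2 ratio as deposited of all 66 member features (rows, gene and feature number, grouped by role) on the 6 arrays (columns); blue is negative, red positive, white 0. The column of array 4 is blue for 57 of 66 features, and that of array 5 holds values from −3.45 (NOP4) to 3.74 (DBP3).

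The 10 RNA helicase genes, on 14 features, lay on both sides of the array median. Their mean on arrays 1 to 6 was 0.26, 0.08, −0.24, −0.94, −0.18 and −0.13 (as deposited), and 10 of 14 features were negative on array 4. HAS1, a helicase that acts in both subunits, was among the lowest there, at −2.29 and −2.49 on its features, against −0.76 and −1.21 on array 5 and 1.07 and 0.67 on array 2. SPB4, needed for late nucleolar steps, lay at −0.91, 1.01, 0.57, −1.99, −1.57 and −0.36, and DBP9, an early helicase, at −0.35, 0.88, 0.27, −1.79, −1.87 and 0.31. Both were negative on arrays 4 and 5 and positive on arrays 2 and 3, as HAS1 feature 3576 was, whereas HAS1 feature 4728 had −0.76 on array 3. DBP6 was opposite to them on arrays 2 and 4, at −3.64 and 2.66 (−2.24 and 0.83 with the neighbouring features subtracted). DBP10, another helicase, was near 0 on array 4 (0.25) and at 1.79 on array 5. MAK5, the last helicase of the list, lay between −1.27 and 0.87, but its feature carried the same value, to 9 decimals, as an adjacent feature without a gene name on all 6 arrays, so its values need not be its own.

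Among the GTPases, NOG2, whose product acts in the nucleus before export, lay at 0.62, 0.53, 0.03, −2.09, −2.40 and −0.13. NUG1 matched it on array 4, at −2.03, and was opposite on array 5, at 2.52, with −0.17, 0.38, −0.32 and −1.05 on arrays 1, 2, 3 and 6. NOG1, which binds particles from the nucleolus to the cytoplasm, lay at 2.02, 1.39, −0.87, −0.21, −1.22 and 1.07. It was thus near the array median on array 4, but at −1.32 there with the neighbouring features subtracted. The methyltransferase genes also differed among themselves. NOP2, for a cytosine methyltransferase of the large-subunit RNA, and SPB1, for a ribose methyltransferase, were both at −1.78 on array 4, whereas RRP8, for an adenine methyltransferase, was at −0.17 there and at 2.23 on array 6, the highest member on that array.

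The Nop7, Erb1 and Ytm1 proteins form a complex that is needed for cutting the internal spacer of the precursor. All 5 features of their genes were positive on array 2, from 0.27 to 1.82, and negative on array 4, from −2.24 to −0.94. On array 1 they held both the lowest and the highest member, YTM1 at −3.46 and NOP7 feature 4415 at 3.43. With the neighbouring features subtracted these stood at −1.26 and 3.44. The YTM1 value equalled a ratio of small whole numbers (smaller term at most 60). Without it the estimate of YTM1 as deposited was −0.40, against −0.85 as reported. The Noc proteins pair with one another at successive stages, Noc2 first with Mak21 and later with Noc3. NOC2, NOC3 and MAK21 lay at −0.88, −1.58 and −1.31 on array 4 and at −1.86, −1.24 and −1.48 on array 5, negative on both, and all 3 were positive on array 6, from 0.12 to 1.43.

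Brix-domain proteins bind the precursor RNA, and Rpf2 with Rrs1 brings a further ribosomal RNA and its proteins to the particle. All 6 Brix features were negative on array 4, from −2.09 to −0.46, and 5 of 6 were positive on array 2. RPF1 lay at −0.90, 1.19, 1.65, −1.84, −0.91 and 0.51, positive on arrays 2, 3 and 6. SSF1 and SSF2 are paralogs of very similar sequence, so their spots may not tell them apart. They had −1.38 and −2.09 on array 4, −1.0 and −0.87 on array 1 and −0.54 each on array 6, but −0.46 and 0.94 on array 3. RRS1 lay at −2.25 on array 5, with a range of −0.36 to 0.41 over the other arrays. Its value on array 5 was −0.34 with the neighbouring features subtracted. RRB1, the chaperone of a newly made ribosomal protein, lay at 1.81, 0.67, −1.48, −1.30, −0.35 and 0.23.

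The genes of RNA-binding proteins had a mean of −2.11 on array 5 and −0.75 on array 4, and all 5 were negative on both. On array 5 they ran from NOP4 at −3.45, the lowest member there, to PUF6 at −1.42, and on array 6 all 5 were positive, from 0.19 to 1.81. With the neighbouring features subtracted, NOP4 stood at 0.43 on array 5, while the others ran from −2.44 (PUF6) to −0.66 (LOC1). On array 4 they ran from LOC1 at −1.67 to NOP4 at −0.01. LOC1, known also for its part in mRNA localization, lay at −2.06, 1.63, 2.09, −1.67, −1.68 and 0.28, and was the highest member on array 3. NOP15, the lowest member on array 2 at −4.05, was at −0.21 on array 4, and NOP12 was at −0.43. The value of NOP15 on array 2 was 0.44 with the neighbouring features subtracted. On array 4 the same correction put NOP15 at −1.92, NOP4 at −1.40 and NOP12 at −0.35.

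Placeholders and relatives of ribosomal proteins were nearest to the array median on array 4, at −0.33 in the mean (range −0.81 to 0.62). RLP24, which holds the place of a ribosomal protein it resembles, had 0.41, −0.37, −0.14, 0.62, 1.71 and 0.39 on feature 3874 and 0.91, 0.70, −0.04, −0.81, −0.08 and −0.23 on feature 5388, with opposite signs on 4 arrays. RLP7 had 2.46 on array 2, the highest member there, on feature 4734, and 1.23 on feature 3582. MRT4, the placeholder of the stalk protein, lay at 0.06, 2.43, 0.37, −0.67, 0.58 and 0.91, positive on 5 arrays. TIF6, which keeps the subunits from joining too early, lay at 1.36, 0.09, −1.56, −0.33, −0.04 and −0.01.

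The 4 genes of export and cytoplasmic maturation were all positive on array 2 and negative on arrays 4 and 5. SDA1, needed for nuclear export of the particle, lay at 0.12, 1.16, 0.59, −2.67, −1.31 and −0.19, and was the lowest member on array 4. NMD3, the export adaptor, lay at 0.77, 1.30, −0.35, −1.84, −0.64 and 0.45, and ARX1, an export factor that binds the pore, at 0.55, 0.99, 0.91, −2.48, −1.67 and −0.50. These had array 2 as their highest and array 4 as their lowest value. REI1, which releases Arx1 in the cytoplasm, was also highest on array 2, at 0.90, but lowest on array 5, at −0.46, and was at −0.15 on array 4.

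Of the other assembly factors, CIC1 was at −1.34 on array 4 and at 1.88 on array 6, and RRP14 at −1.35 and −1.41 on its features on array 4. JIP5 and REX4 were near or below the median on array 4, at 0.09 and −0.66, and far below it on array 5, at −3.09 and −3.24. RRP15 was the opposite case, at 0.35 on array 4 and 3.28 on array 5. With the neighbouring features subtracted, JIP5, REX4 and RRP15 stood at −0.78, −1.48 and −0.23 on array 4. On array 5 they then stood at −1.27, −2.10 and 3.89. MAK16 lay at −0.28, −0.23, 0.34, −1.80, 1.21 and −0.99. CGR1 was at −0.75 and 0.34 on array 4 and at −0.51 and −1.94 on array 1.

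The sign of the member mean was met on all 6 arrays by 9 of 66 features (13.6%, against 2.31% of all features, with the members themselves setting that mean). They belonged to BRX1, ERB1 (both features), NMD3, NOC2, NOG1, NOP4, REX4 and RRB1. Over the 6 arrays, which all features share, the correlation of a member feature with the mean of the others had a median of 0.54 in both readings, and it was above 0.8 for 12 features as deposited and for 15 turned. The share of all features above 0.8 was not worked out. These counts thus do not show that members ran more alike than other features. The closest as deposited were NMD3 (0.98), DBP7 feature 3830 (0.97), HAS1 (0.96 and 0.95), SDA1 (0.95), RRP14 feature 3277 (0.94), ERB1 feature 4229 (0.90), ARX1 (0.89), NOG2 (0.88) and DBP9 (0.87). The most unlike were DBP6 (−0.63), MAK5 and RLP24 feature 3874 (−0.59 each), CGR1 feature 4778 (−0.57) and RRP15 (−0.49). Turned, HAS1 feature 3576 (0.99) and SDA1 (0.97) led and DBP10 (−0.69) came last. The member mean was farthest from 0 on array 4, so that array weighs most in these correlations.

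Members spotted in 2 places gave a check on single features. On array 4 the features of the 13 genes had the same sign for 10 of 13 (67.5% of all 1100 such pairs), with a correlation of 0.664 across genes, against 0.436 for all pairs, and a median difference of 0.27, against 0.51. On array 5 the correlation was 0.732, against 0.600, but the feature of the lower number was the higher one in 12 of 13 genes, as it was in 82.1% of all pairs, so values moved with the feature number. This was not particular to array 5: the lower number was also the higher value for 75.5% of all pairs of array 6, 64.6% of array 3 and 61.6% of array 2, while arrays 1 and 4 had 41.0% and 43.0%. What part the feature number had in the split on array 5 was not tested. On array 1 the correlation was 0.003, against 0.147, and 5 of 13 had the same sign (56.6% of all pairs). The median difference on arrays 1, 2, 3 and 5 was 1.08, 0.94, 0.77 and 0.98, against 0.67, 0.76, 0.68 and 0.85 for all pairs. There the members repeated less well than all pairs. On array 6 it was 0.54, against 0.59. By the median difference over arrays, EBP2 repeated best, at 0.20, and RPF2 least, at 1.34. The largest difference on a single array was that of DBP3, with 3.74 and −0.34 on array 5, followed by NOP7 with 3.43 on array 1. The turned estimates of the features of a gene had the same sign for 8 of 13 genes (65.3% of all pairs) and those as deposited for 5 of 13 (56.6% of all pairs). Genes are not independent replicates, so these correlations were not tested.

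**Figure D4:**
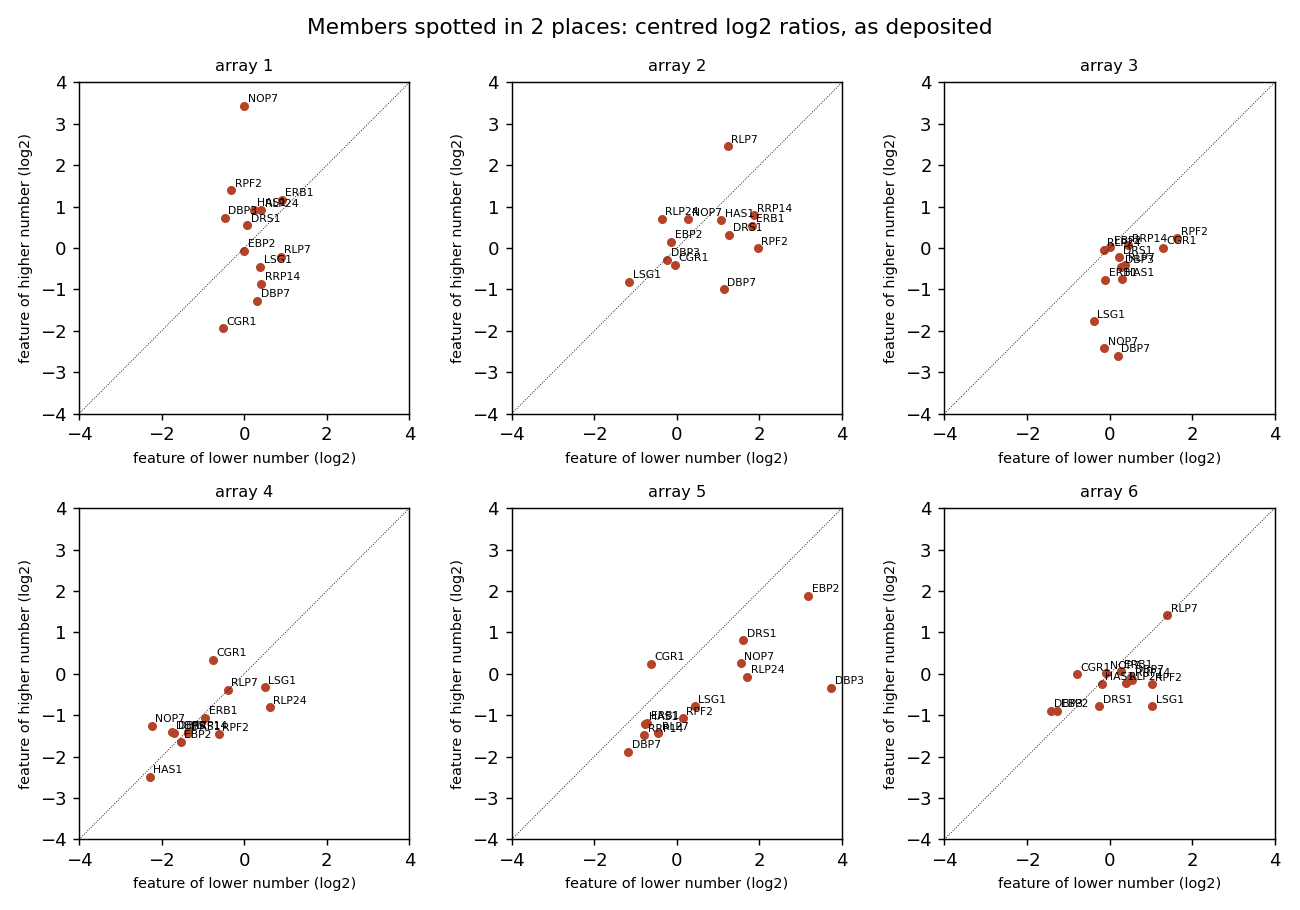
Centred log2 ratios as deposited of the 13 members spotted in 2 places, with the feature of lower number on the horizontal and that of higher number on the vertical axis, 1 panel per array; the dotted line marks equal values. Points lie near the line on array 4, and 12 of 13 lie below it on array 5.

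Of the 396 member values, 12 equalled a ratio of small whole numbers (smaller term at most 60), and 11 were identical to the value of another feature on the same array. Apart from MAK5, such copies were found for LSG1 feature 4346 on 2 arrays (shared with SAE2), RLP7 feature 3582 on 2 arrays and ERB1 feature 5984 on 1.

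Other genes of the pathway were described with the same values. A list of other large-subunit assembly factors, 36 genes on 46 features, had means of 0.31, 0.40, 0.08, −0.60, −0.45 and 0.25 on arrays 1 to 6 as deposited. It too was lowest on array 4 (37 of 46 negative) and positive on array 2 (33 of 46). By limma 0 of its 46 features passed in either reading. At an unadjusted limma p under 0.05 there were 3 turned, all negative, where 13.0% of all features were called. As deposited there were 5, 2 of them positive, where 13.5% of all features were called. The small-subunit processome, which builds the other subunit in the same nucleolus (43 genes, 50 features), had means of 0.26, −0.01, 0.01, −0.45, −0.58 and 0.23. Of its 50 features 0 passed turned (0.0130% of all features did) and 1 as deposited (1.65% of all features did). At an unadjusted limma p under 0.05 turned there were 6, against 13.0% of all features. On array 4 the median was −1.30 for the members, against −0.60 and −0.44 for these lists, and a test of these differences was not made.

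The large-subunit ribosomal protein genes, whose products the assembly factors build in, were placed otherwise. On array 5 the assembly factors had a median of −0.74 with 20 of 66 features positive, and the ribosomal protein genes (80 genes, 98 features) a median of 2.25 with 94 of 98 positive. On array 6 the medians were 0.02 and −0.94, and on array 4 they were −1.30 and −0.49. Turned, the assembly factors had positive means on 4 arrays and negative on 2 (−0.11 ± 0.52, SD, n = 6), and the ribosomal protein genes a negative mean on all 6 (−0.69 ± 0.73). Of the 98 ribosomal protein features 0 passed turned. At an unadjusted limma p under 0.05 turned, 41 of them were negative and 1 positive, against 5.48% and 7.51% of all features. On array 6 the first set of assembly factors had a median of −1.02, and the ribosomal protein genes one of −0.94. Array 6 shares a labelled day with array 5. Over the member features it correlated at 0.357 with array 4 and −0.427 with array 5. Array 6 is thus not separate from the arrays that defined the first set. These comparisons are descriptions over the same arrays and were not tested.

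**Figure D5:**
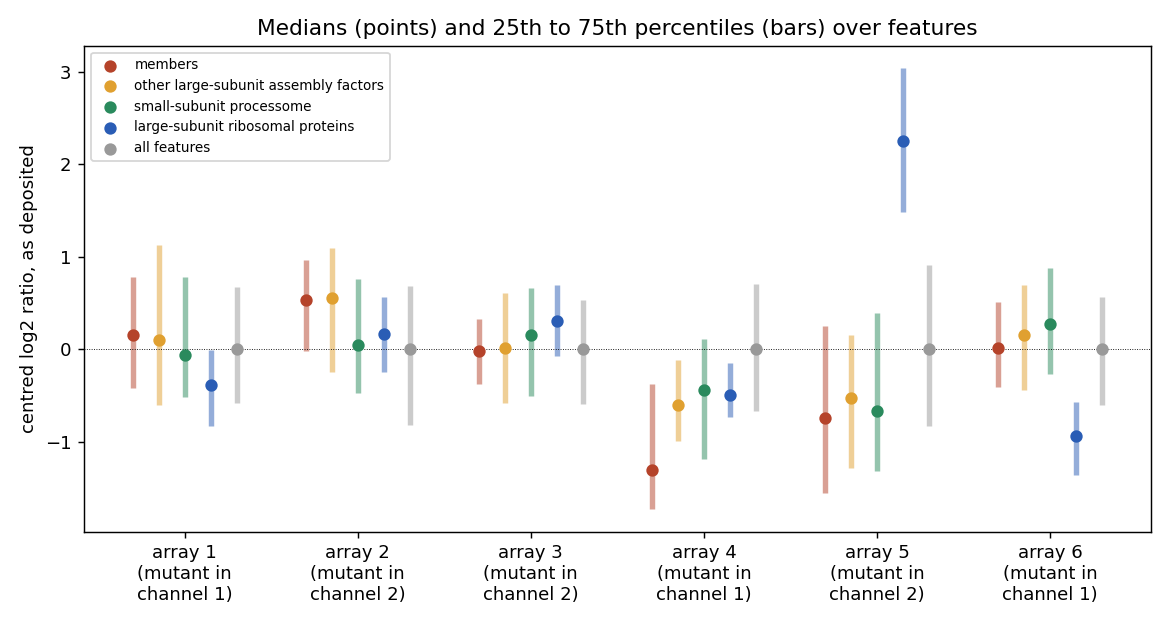
Median (points) and 25th to 75th percentile (bars) over features of the centred log2 ratios, as deposited, on each array, for the member features, other large-subunit assembly factors, the small-subunit processome, large-subunit ribosomal proteins and all features, from left to right. Array 4 has the lowest member median (−1.30), and array 5 separates the ribosomal protein genes (2.25) from the assembly factors (−0.74).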

How the data were processed

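The authors deposited a log10 ratio of the channels for each feature of an array. Nothing names this scale, which follows from values that are exact log10 ratios of small whole numbers. Image analysis, background treatment, normalization and the numerator channel are not given in the sources. Signal over background is not known. Array medians ran from −1.18 to 1.24 (log10), so the deposited columns were not centred.

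Of 7684 rows, 1 had no numeric identifier and was dropped, and 3 repeated identifiers were averaged. The platform annotation named 6695 of the 7680 features with 1 gene symbol, several for 0 and none for 985, and all 66 member features kept their symbol in the current gene table. Values were converted to log2 and centred on each array's median.

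All features with values on at least 4 arrays, 2 of each channel assignment, were fitted in limma 3.58.1 (R 4.3.3; lmFit, eBayes). The contrast turned by the labelled mutant channel and the columns as deposited are the 2 coefficients of that fit. Tests are two-sided, with Benjamini-Hochberg adjustment over all features and a threshold of 0.05. The fit was tested on simulated data. The neighbourhood correction takes away the median of nearby features, those whose identifiers differ by 1, 2, 20 or 21. The members, lists and alternatives were chosen with earlier results of these data known. Named members are the 10 smallest p in each reading, those with 1 sign on all arrays, every feature of members spotted in 2 places, extremes of each array and of correlation with the other members, and the smallest p of each role. Other members are given to describe their role and were picked after their values were seen. Each array counted as 1 replicate. Separate cultures are not stated, so p-values measure the spread between arrays, which may be technical, and the number of arrays limits the precision.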

Additional observations from a re-analysis of the deposited data

Results flagged for a closer look

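Of 22 sets of 6 array values examined (the member mean and the 10 smallest p in each reading), 2 held an array far from the others, where chance flags about 1 in 20. LSG1 feature 4346 lay at −1.77 on array 3 as deposited, while the other arrays ran from −0.81 to −0.33, and that value was identical to the SAE2 feature's. DBP2 lay at −0.90 on array 2 when turned, while the other arrays ran from 0.95 to 1.84.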

How the results depend on the processing

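Of 468 alternative values, 417 kept their direction and their side of the threshold or stayed within the limits set for counts and means. These limits are wide. None of the 20 named estimates passed as reported, so one that shrank with its sign kept was counted as kept. A member mean was counted as kept if it moved by less than the SD over arrays. The turned mean of 0.08, against −0.11 as reported, was thus counted as kept. Leaving the arrays uncentred moved the most: 4887 features and 46 members then passed turned, 2 features passed as deposited, and the member means were −2.21 and −0.98, against medians of all features of −2.07 and −0.82. There NOP16, DBP3, SSF2, NUG1, DRS1, EBP2 and MAK16 passed turned, DBP6 (−0.48), NOP15 (−0.76) and DBP2 (−1.11) changed side, as did RPF2 (−0.19), MRT4 (−0.22) and RLP7 (−0.33) as deposited. The neighbourhood correction reversed NOP15 (−0.19) and DBP2 (−0.29) turned and RPF2 (−0.26), YTM1 (0.03) and RLP7 (−0.01) as deposited, and left 0 features passing turned and 3 as deposited (677 and 1033 at an unadjusted limma p under 0.05). YTM1 also changed side with array 1 turned over (0.30), where 2 features passed as deposited.

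Among all features, the turned count was 2 with arrays scaled, 7 with array weights, and 0 without repeated values or with all 6 arrays required (923 and 990 at an unadjusted limma p under 0.05). The count as deposited was 36 without repeated values, 0 with arrays of a day averaged (888 at an unadjusted limma p under 0.05), 257 with day as a random block, 580 with array weights and 69 with features of a gene averaged. DBP7 feature 5344 passed as deposited with day as a random block (adjusted p = 0.0377), where the estimated correlation of arrays of a day was −0.266, but not with these arrays averaged (adjusted p = 0.158), and it passed, with LSG1 feature 4346 (0.0331; range up to 0.722), with array weights (0.00777), so 1 and 2 members passed there in limma. Over its alternatives the adjusted p of DBP7 ran up to 0.549, and with features of a gene averaged DBP7 stood at −0.74 and LSG1 at −0.34. Leaving out 1 array gave 0 to 4 features turned and 0 to 214 as deposited (0 without array 4 or 6, with 817 and 783 at an unadjusted limma p under 0.05), 0 members in either reading, and member means of −0.21 to 0.08 turned and −0.26 to 0.03 as deposited. For changes beyond these constructions the cause was not tested. Replicate numbers paired no samples, since all arrays form 1 group, and pairs of arrays of 1 day with opposite mutant channels were handled by the averaging, the random block and the within-day values.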
